A study of Homo sapiens with 6 samples.

Results

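The bins described here are the 100 Kb bins of the 22 autosomes in which T47D cells treated with estradiol (E2) for 24 h stood alone in their compartment. They were chosen by the sign of the deposited compartment score: a bin had to be scored in all 6 libraries, to have the same sign in the 4 libraries from 0 to 16 h of E2, and to have the other sign at 24 h. Of 26484 autosomal bins scored in all 6 libraries, 25152 had the same sign from 0 to 16 h, and 532 of these differed at 24 h (2.12%). In 428 of the 532 bins the sign went from compartment A to compartment B, and in 104 from B to A.

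T47D is an established breast cancer cell line that expresses the estrogen receptor. Parental cells were deprived of hormone for 72 h and collected without E2 (T0) or after 1, 4, 16 or 24 h in 100 nM E2 (T1, T4, T16 and T24). The 6th library came from tamoxifen-resistant T47D cells (TamR), which the sample labels call untreated and the methods of the study describe as kept in 100 nM tamoxifen. Contacts between genomic regions were captured by TCC, a form of Hi-C with ligation on a solid surface. The score of a bin is the first eigenvector of the matrix of contacts between chromosomes, printed here multiplied by 1000, and a positive score places the bin in compartment A and a negative score in compartment B. There was 1 library per condition, and these files do not give the number of contacts on which a score rests. The reporting summary of the study says that its data were replicated, and its text describes combined replicates for MCF7 cells and does not say whether a T47D library combines cultures. With these files a difference between conditions cannot be checked in replicates and has no p-value, and the 95% Wilson intervals given with shares cover the count of bins alone, although adjacent bins are not independent.

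Compartment A gathers open, gene-rich and transcribed chromatin, and compartment B gathers compact, gene-poor chromatin that often lies at the nuclear lamina. E2 binds the estrogen receptor, which attaches to estrogen response elements and changes the transcription of nearby genes. Tamoxifen competes with E2 for the receptor, and cells that keep growing in it are a model of endocrine resistance.

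The consensus palindrome of the estrogen response element, GGTCANNNTGACC, was searched on both strands of the GRCh37 sequence, on which it reads the same. It was found in 31 of the 428 A-to-B bins (7.24%), against 8.89% of all bins in A from T0 to T16. The share was 5.97% in the near-border A bins that kept their sign, which are defined below. Among the B-to-A bins it was found in 12 of 104 (11.5%, 6.72 to 19.1%), against 5.89% of all bins in B and 6.49% of the near-border B bins. The next lines show examples, with 10 bases on either side and the 5-base arms in capitals, from bins with some of the largest T24 differences among those that hold the palindrome: 3 A-to-B bins, then 2 B-to-A bins.
chr13:22746929-22746961 (+): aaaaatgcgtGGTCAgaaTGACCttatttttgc
chr14:56978456-56978488 (+): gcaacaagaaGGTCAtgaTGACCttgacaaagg
chr4:111268106-111268138 (+): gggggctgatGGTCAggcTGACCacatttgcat
chr15:87407404-87407436 (+): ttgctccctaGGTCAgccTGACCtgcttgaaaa
chr19:21583546-21583578 (+): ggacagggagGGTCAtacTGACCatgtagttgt
The site on chromosome 14 lies in an intron of TMEM260, that on chromosome 15 in an intron of AGBL1, and the last in an intron of ZNF493, 3.64 Kb from its start. The other 2 lie in no protein-coding gene, at 18.8 Kb (ENPEP) and 502 Kb (FGF9) from the nearest gene start. A match describes these letters and is not a bound site.

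The bins went through their sign with small scores. In the 428 A-to-B bins the median score fell from 0.97 at T0 to 0.63, 0.85 and 0.60 at T1, T4 and T16 and to -0.35 at 24 h, and was 0.30 in TamR. In the 104 B-to-A bins it was -1.36, -0.96, -0.89 and -0.64 at T0, T1, T4 and T16, 0.36 at T24 and 0.50 in TamR. For scale, the median absolute score over all autosomal bins lay between 4.69 and 4.93 in the 6 libraries, so both groups sat close to the border between A and B in every parental library. The T24 score was within 0.5 of 0 in 286 A-to-B bins (66.8%) and in 64 B-to-A bins (61.5%). The difference of T24 from the mean of T0, T1, T4 and T16 ran from -0.30 to -2.57 in the A-to-B bins, with a median of -1.19. In the B-to-A bins it ran from 0.13 to 3.99, with a median of 1.58. The B-to-A bins moved further: 37 of 104 differed by at least 2, against 10 of 428 A-to-B bins. These values chose the bins and are given as a description.

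**Figure D1:**
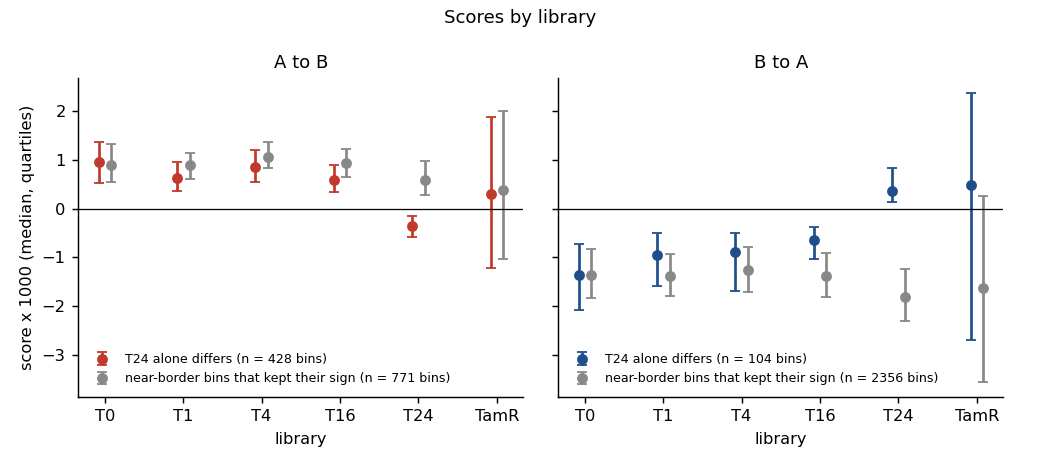
Median score x 1000 (points) with quartiles (bars) in each of the 6 libraries, for the bins where T24 alone differs and for near-border bins. The near-border bins lay in a similar range of scores, though further from 0 in the median absolute mean, and kept their sign at T24. The coloured points cross 0 at T24, to -0.35 in the A-to-B bins and 0.36 in the B-to-A bins, and the TamR bars are widest.

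At the threshold itself, the A-to-B bin nearest to 0 was chr7:16800001-16900000, which holds the start of AGR2 and scored -0.0058 at T24. The nearest A bin that was not included, chr1:185600001-185700000, scored 7.71e-05. For B to A, the values were 0.0039 at chr10:100800001-100900000 inside and -0.034 at chr16:49600001-49700000 outside.

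T24 was the library with the most bins standing alone when the border was at 0, and the same rule gave 376 bins for T0 (1.5%), 55 for T1 (0.223%), 90 for T4 (0.364%) and 115 for T16 (0.465%). It was also the library in which most such bins went to B, 80.5% (76.9 to 83.6%), against 44.7% for T0 and 10 to 27.8% for T1, T4 and T16. Both statements depended on where the border was placed. With the border at the median score of each library, which was -0.94 in T24 and -0.44 to -0.59 in the other parental libraries, 369 bins differed in T24 alone and 373 in T0 alone, and 45% of the T24 bins went to B. Only 27 of the 428 A-to-B bins (6.31%) were still A-to-B bins under that border, where they made up 16.3% of 166. Of the 104 B-to-A bins, 44 (42.3%) were, which was 21.7% of 203. Membership of the A-to-B group thus depended on a border at 0.

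**Figure D2:**
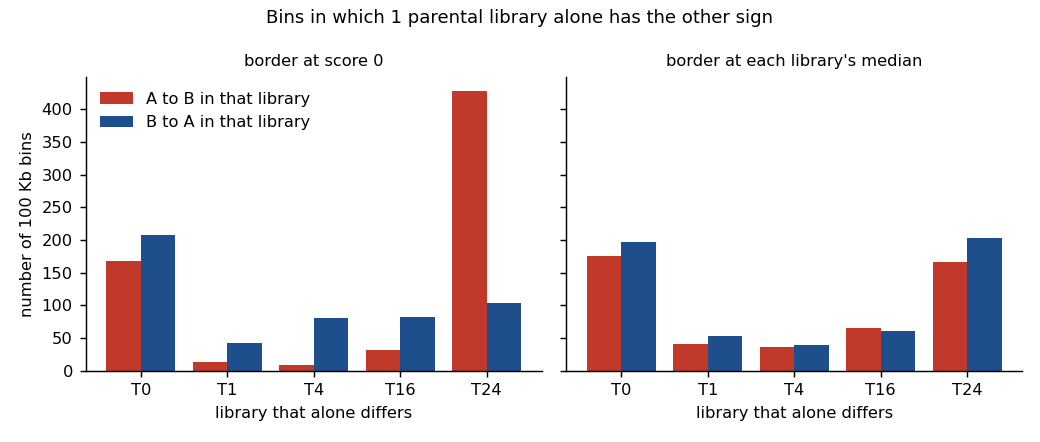
Number of 100 Kb bins in which 1 parental library alone has the other sign, with A to B in red and B to A in blue, for a border at 0 (left) and at the median score of each library (right). The 428 A-to-B bins of T24 stand out on the left, and on the right T24 (369 bins) and T0 (373 bins) are close.

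A lower T24 score was common to bins near the border and was not confined to those that changed sign. Of the 1335 bins with a mean of T0 to T16 between 0 and 1, 78.8% were lower at T24, with a median difference of -0.56. Between -1 and 0, 75.1% of 1462 bins were lower, with a median of -0.51. Far from the border the picture turned: below -5, 21.7% of bins were lower, and above 5, 40.2%. For comparison, other bins that kept their sign in a similar range of scores were used as near-border bins, 771 in A and 2356 in B. Their absolute mean score lay between the 10th and the 90th percentile of the absolute means of the A-to-B or the B-to-A bins. They still lay further from the border, with a median absolute mean of 1.02 in A against 0.76 in the A-to-B bins. In B it was 1.36 against 0.91 in the B-to-A bins. Shares set beside those of the near-border bins carry this difference. The weighted shares given for TamR were drawn from all other bins of the same compartment in place of the near-border bins. T24 was lower in 75.4% of the near-border A bins and 76.4% of the near-border B bins. In the A-to-B and the B-to-A bins the rule itself fixed the direction, to lower and to higher, so no comparison of direction is drawn.

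**Figure D3:**
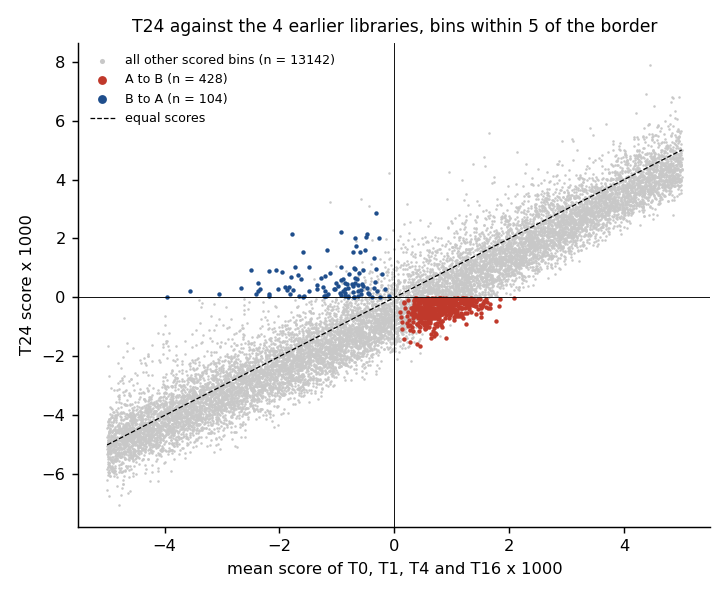
T24 score against the mean score of T0, T1, T4 and T16 (both x 1000) for all scored autosomal bins with a mean within 5 of 0, with A-to-B bins in red, B-to-A bins in blue and the others in grey. The red bins lie on the lower edge of the grey cloud, which is itself mostly below the line of equal scores near 0, and the blue bins lie above it, up to a T24 score of 2.85.

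The score at 16 h lay further toward the border than the mean of T0, T1 and T4 in 296 of 428 A-to-B bins (69.2%, 64.6 to 73.3%) and in 78 of 104 B-to-A bins (75%, 65.9 to 82.3%). Among the near-border bins the shares were 53.3% and 44%. The rule required T16 to keep its sign and so bore on this value. T16 was the nearest of the 4 libraries to the border in 171 A-to-B bins, T1 in 129, T0 in 86 and T4 in 42, and the A-to-B medians at T1 and T16 were nearly equal. In the B-to-A bins T16 was nearest in 54, T1 in 22, T4 in 18 and T0 in 10.

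The bins lay beside compartment borders more often than scored bins in general, many lay inside a compartment, and most runs were short. A bin was counted as beside a border when the mean score of T0 to T16 had the other sign in an adjacent bin. The rule used the same scores, so border position is given as a description. An adjacent bin had the other sign for 7.78% of all scored autosomal bins. It held for 182 A-to-B bins (42.5%, 37.9 to 47.3%) and 39 B-to-A bins (37.5%, 28.8 to 47.1%), against 32.0% and 20.2% of the near-border bins. The 428 A-to-B bins formed 303 runs of adjacent bins, of which 219 were a single bin and the longest had 6 bins. Of these runs, 146 touched 1 border, 128 lay inside an A compartment and 26 were a whole A compartment. The 104 B-to-A bins formed 64 runs, of which 42 were a single bin and the longest had 5 bins. Of those, 32 touched 1 border, 25 lay inside a B compartment and 5 were a whole one. Apart from edges, 21 B-to-A bins (20.2%) lay within 2 Mb of a stretch of at least 10 unscored bins, such as a centromere, against 3 A-to-B bins (0.70%). In B this share was 3.82% of all bins and 1.78% of the near-border bins. In A it was 2.45% of all bins and 4.28% of the near-border bins.

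The GC content of both groups was close to the genome median of 39.9% and lay between those of A and B. The median was 39.7% in the A-to-B bins (quartiles 38.0 to 41.4%), 40.7% in the near-border A bins and 43.7% in all other A bins. In the B-to-A bins it was 41.0% (38.7 to 42.9%), against 38.8% in the near-border B bins and 37.5% in all other B bins. Bins above the genome median made up 48.1% of the A-to-B bins (43.4 to 52.9%) and 61.1% of their near-border bins, and 65.4% of the B-to-A bins (55.8 to 73.8%) and 37.1% of theirs. The T24 score itself followed GC more closely than the other parental scores did, with r = 0.75 across 26484 bins against 0.71 to 0.73. With a straight-line dependence of the T24 difference on GC removed, 520 bins were found and the shares above the median became 57.2% and 58.7%. That step itself lowers T24 in GC-rich bins, and the near-border bins were not drawn anew, so these shares are not compared with theirs.

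A protein-coding gene started in 178 A-to-B bins (41.6%, 37 to 46.3%), 44.4% of the near-border A bins and 59.7% of all other A bins. In B to A it was 39 bins (37.5%, 28.8 to 47.1%), 32.6% of the near-border B bins and 19.6% of all other B bins. In gene content too, both groups lay between A and B. In all, 248 gene starts fell in A-to-B bins and 58 in B-to-A bins, out of 18862 starts in scored bins (1.31% and 0.31%).

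In TamR, the A-to-B bins were divided much like other bins near the border, and the B-to-A bins were more often in A. TamR was in B in 200 of the 428 A-to-B bins (46.7%, 42.1 to 51.5%), where the share over all bins in A from T0 to T16 was 10.6%. The near-border bins gave 43.2% (39.7 to 46.7%). All other A bins, weighted to the members' spread of absolute mean scores, gave 42.4%. TamR was in A in 60 of the 104 B-to-A bins (57.7%, 48.1 to 66.7%), where the share over all bins in B was 12.4%. For those the near-border bins gave 27.8% (26.0 to 29.6%), and all other B bins weighted in that way gave 29.2%. Chromosome 19 held much of this: 20 of its 21 B-to-A bins were in A in TamR, against 40 of the 83 on other chromosomes (48.2%). Members opposite in TamR lay in opposite stretches with a median length, taken per member, of 5 bins in both directions, and so in TamR the change often reached beyond the bin. The length was not computed for other bins opposite in TamR. T24 and TamR are compared here with the same 4 libraries, and each has 1 library.

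The A-to-B bins and the B-to-A bins favoured different chromosomes. Of bins in A from T0 to T16, 49 of 551 went to B on chromosome 4 (8.89%) and 20 of 277 on chromosome 13 (7.22%), where 3.62% did over all autosomes. None did on chromosomes 19 and 22, the autosomes with the highest GC content, where 0 of 443 and 0 of 308 bins allow shares of up to 0.86% and 1.23% by the Wilson interval. Chromosomes 2, 3, 4 and 5 held 185 of the 428 bins (43.2%). Of bins in B, 21 of 100 on chromosome 19 went to A (21%, 14.2 to 30%), where 0.78% did over all autosomes. Chromosome 22 followed with 2 of 21 (9.52%, 2.65 to 28.9%), too few bins to set it apart from chromosome 19, then chromosome 16 with 14 of 329 (4.26%) and chromosome 15 with 10 of 279 (3.58%). Chromosomes 15, 16 and 19 held 45 of the 104 bins (43.3%). In the other libraries that stood alone, chromosome 19 held 0 (T0), 0 (T1), 0 (T4) and 1 (T16) B-to-A bins. Chromosome 19 as a whole scored higher at T24, in 84.6% of its 557 scored bins, the largest share among the 22 autosomes, with a median difference of 0.86. Over all autosomes T24 was higher in 48.0% of bins. How far the shift of the whole chromosome enters its B-to-A count was not tested.

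**Figure D4:**
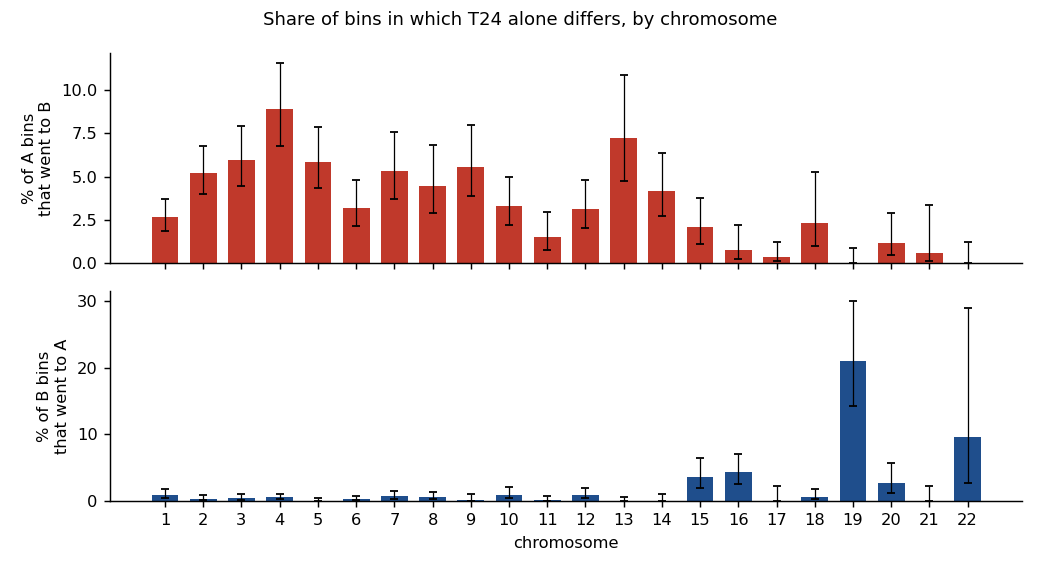
Share of bins in A from T0 to T16 that went to B at T24 (top) and of bins in B that went to A (bottom) on each autosome, with 95% Wilson intervals as bars. Chromosome 4 is highest at the top with 8.89%, and chromosome 19 is highest at the bottom with 21%, followed by chromosome 22 with 9.52% and a wide interval.

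The B-to-A bins of chromosome 19 lay in a block of zinc finger genes. The block chr19:20000001-24200000 (hg19) held 17 of the 21, among 41 scored bins. KRAB zinc finger proteins, which this block is known to encode in large number, bind transposable elements and recruit the corepressor TRIM28, and their clusters carry H3K9me3. In the 17 bins the median score was -0.92 at T0, -1.10 at T1, -1.24 at T4 and -1.18 at T16, then 1.56 after 24 h, and 4.83 in TamR. The T24 score was above the mean of T0 to T16 in 41 of the 41 scored bins of the block, and TamR was in A in 39 of them. Of the 16 gene starts in the 17 bins, 14 were ZNF genes. With the border at the library median, 16 bins of the block were B-to-A bins, and 22 on the whole chromosome, 10 of which were among the 21. When bins among the weakest 10% by absolute score in at least 1 library were left out, 3 of the 532 bins were left, and all 3 were B-to-A bins of chromosome 19. They were a bin of this block without a protein-coding gene start (chr19:21800001-21900000), the ZNF675 bin and the NLRP9 bin described below.

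**Figure D5:**
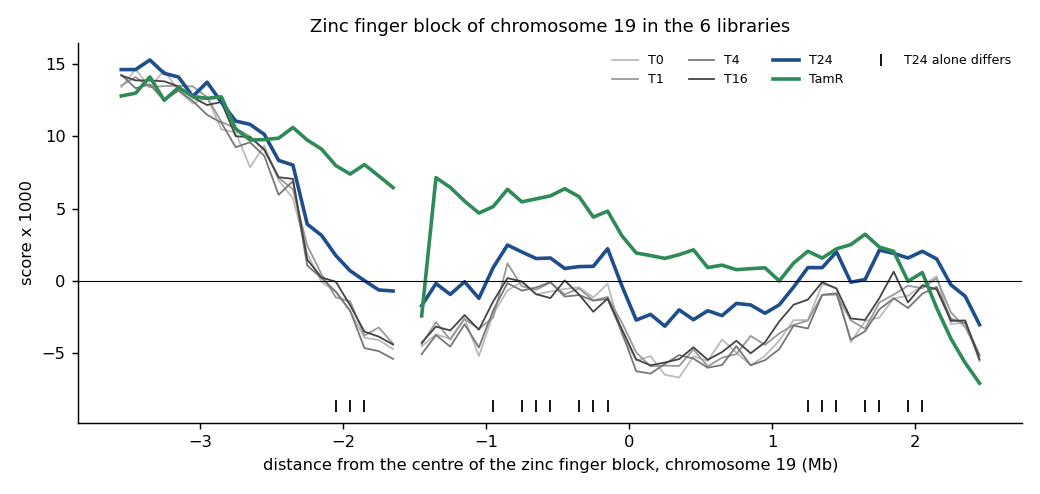
Score x 1000 in the 6 libraries along the zinc finger block of chromosome 19, against the distance in Mb from the centre of the block, with ticks under the 17 bins of the block where T24 alone differs and breaks at unscored bins. The T24 line lies above the mean of the T0, T1, T4 and T16 lines in 41 of the 41 scored bins of the block, and the TamR line runs higher still over most of it.

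Among the members of the block, ZNF486 had the largest difference of all 532 bins. Its bin scored -3.93 at T0, -3.77 at T1, -4.63 at T4, -3.50 at T16, 0.029 at T24 and 8.05 in TamR, a T24 difference of 3.99. The 4 earlier libraries were thus far in B, T24 was at the border and TamR was far in A. The ZNF675 bin scored -2.52, -1.48, -1.95 and -1.17 from T0 to T16, 2.14 at T24 and 2.35 in TamR. The ZNF100 bin scored -0.19, -1.10, -1.24 and -1.21, then 2.23 at T24 and 4.83 in TamR. In both bins T24 was as clearly in A as the earlier libraries were in B. The bin of ZNF91, a repressor of SVA retrotransposons, scored -0.45, -0.94, -0.84 and -0.53, then 2.02 at T24 and 2.23 in TamR. The bin of ZNF85 went from between -2.52 and -1.40 to 0.93 at T24 and 5.15 in TamR. ZNF682 and ZNF90 share a bin, which went from between -2.08 and -1.39 to 0.71 and 7.40. ZNF708, ZNF738 and ZNF493 share another, which went from between -1.18 and -0.068 to 1.59 and 5.89. ZNF93, a repressor of LINE-1 elements, went from between -1.13 and -0.047 to 1.76 and 7.98. The bins of ZNF431 and ZNF724 reached 2.01 and 0.93 at T24 and were in A in TamR. ZNF726 was the exception, at 1.59 at T24 and -0.016 in TamR, on the B side of the border. Genes of this family have near-identical copies, and how uniquely reads mapped within these bins is not known from these files.

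Zinc finger genes named ZNF made up 18 of the 58 gene starts in B-to-A bins (31.0%), against 498 of the 18862 starts in all scored bins (2.64%). Of the 18, 14 lie on chromosome 19. Of the genes of that chromosome in B from T0 to T16, 14 of 36 ZNF genes (38.9%) started in B-to-A bins. So did 11 of 25 other protein-coding genes (44%), and genes that share a bin, as several of these do, are counted separately. Outside chromosome 19, 4 of the 42 B bins that hold a ZNF start were B-to-A bins (9.52%), where 0.63% of all B bins there were. On chromosome 19 11 of 29 were (37.9%), where 21% of all its B bins were. The T24 difference of these 29 bins had a median of 2.71 (quartiles 2.29 to 3.11), and that of the 42 bins a median of 0.51. The 42 bins also lay nearer the border than all B bins off chromosome 19, with a median T0 score of -3.67 against -5.19. The other 4 genes, ZNF713, ZNF107, ZNF138 and ZNF273, lie on chromosome 7, the last 3 in adjacent bins. Their T24 scores were 0.032, 0.75, 0.82 and 0.32. TamR was in A at the first 3 of these and at -0.22 at ZNF273. The 92 chromosome 19 bins in A that hold a ZNF start were also mostly higher at T24, in 74 bins, with a median difference of 0.59. In the other direction, 2 ZNF genes on other chromosomes, ZNF277 and ZNF483, lay in A-to-B bins at -0.11 and -0.14.

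The promoters of ZNF91 and ZNF431 are shown as 2 members of the block, and that of PIK3CA as an A-to-B gene, which was chosen after its values were seen. Each line gives the 250 bases before the annotated start (GRCh37, GENCODE), 5' to 3' on the strand of the gene, with CG dinucleotides in capitals.
ZNF91, chr19:23578274-23578523 (-): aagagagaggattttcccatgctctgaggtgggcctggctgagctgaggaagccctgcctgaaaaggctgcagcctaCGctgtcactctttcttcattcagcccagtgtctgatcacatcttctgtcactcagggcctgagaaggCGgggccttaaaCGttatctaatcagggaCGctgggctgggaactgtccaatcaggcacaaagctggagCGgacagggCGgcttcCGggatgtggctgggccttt
ZNF431, chr19:21324577-21324826 (+): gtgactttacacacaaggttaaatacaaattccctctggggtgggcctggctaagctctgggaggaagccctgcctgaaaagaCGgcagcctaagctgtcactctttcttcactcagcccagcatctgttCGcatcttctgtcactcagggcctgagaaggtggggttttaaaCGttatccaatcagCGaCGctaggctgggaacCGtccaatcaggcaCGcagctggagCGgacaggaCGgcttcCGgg
PIK3CA, chr3:178865652-178865901 (+): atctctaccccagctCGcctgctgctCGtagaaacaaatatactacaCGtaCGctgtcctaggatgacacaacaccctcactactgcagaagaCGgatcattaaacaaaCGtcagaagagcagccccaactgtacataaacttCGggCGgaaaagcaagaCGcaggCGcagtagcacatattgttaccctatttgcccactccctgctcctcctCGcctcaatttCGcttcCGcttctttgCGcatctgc
These windows hold 7, 10 and 14 CG dinucleotides. CG occurs at least once in 96.4% of the 18862 promoter windows of that length, with a median of 14, and the median was 14 for the A-to-B genes and 7 for the B-to-A genes, also for the 18 ZNF genes among them, where all ZNF genes had 15. Of the 18862 starts, 14434 lay in A from T0 to T16, and no median was computed for all genes in B. The arm of the estrogen response element, GGTCA or TGACC on either strand, was found in 32.4% of all windows, 31.5% of the A-to-B windows and 29.3% of the B-to-A windows. None of the 3 windows printed here holds it.

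The remaining chromosome 19 bins were POP4 and VSTM2B at chr19:30000001-30100000, and 3 bins in the NLRP and ZSCAN5 region near the end of the long arm. The bin of NLRP9, a member of the NOD-like receptor family, with RFPL4A and RFPL4AL1, scored -1.65, -1.02, -2.64 and -1.08 from T0 to T16, 1.53 at T24 and 9.37 in TamR. NLRP5, an oocyte protein, and ZSCAN5B, both chosen after their values were seen, lay in the other bins, at 0.36 and 2.16 at T24 and at 10.1 and 11.4 in TamR. TamR was far in A in all 3, above the highest TamR score of the near-border B bins (8.70).

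On other chromosomes, the longest B-to-A run was chr15:87400001-87900000, with 5 bins inside a B compartment and no protein-coding gene start. Its mean score was -2.65 at T0, -2.13 at T1, -1.75 at T4, -0.62 at T16, 0.50 at T24 and -4.99 in TamR. Here TamR lay on the side of the untreated cells, unlike chromosome 19. The run chr16:12600001-13100000 had 5 bins with CPPED1, a phosphatase, and SHISA9, an auxiliary subunit of AMPA receptors, and its mean score was -1.20, -1.38, -1.33, -0.71, 0.38 and 4.45 in the same order. The run chr16:17800001-18200000 had 4 bins and no protein-coding gene start. Its mean went from -3.15 at T0 to -0.57 at T16, 0.18 at T24 and 0.69 in TamR. The bin with the start of AHSP, the chaperone of alpha haemoglobin, and of RUSF1 lay beside a border and scored -3.18, -1.61, -2.73, -1.18, 0.91 and 2.48.

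The longest A-to-B run was chr9:110500001-111100000, with 6 bins inside an A compartment and no protein-coding gene start. Its mean score was 0.43 at T0, 1.05 at T1, 1.59 at T4, 0.66 at T16, -0.63 at T24 and 6.38 in TamR, so TamR was further in A than any parental library. The run chr4:159700001-160300000 had 6 bins that were a whole A compartment, with C4orf45 and RAPGEF2, an exchange factor for Rap GTPases. Its mean was 1.28, 0.59, 1.00, 0.79, -0.59 and 1.95 in the same order. The run chr3:170500001-171000000 had 5 bins with RPL22L1, a ribosomal protein paralog, EIF5A2, a translation factor, and SLC2A2, the glucose transporter GLUT2. Its mean was 0.78, 0.76, 1.36, 0.81, -0.66 and 3.28. In none of these 3 runs was a bin in B in TamR.

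The largest A-to-B differences with a gene start were in the bins of WASHC2A, a subunit of the WASH complex of endosomes, and AGAP6 on chromosome 10, and of DACT1, a regulator of Wnt signalling, on chromosome 14. The WASHC2A bin scored 1.59, 1.90, 1.43 and 2.16 from T0 to T16, -0.80 at T24 and 1.67 in TamR. The DACT1 bin scored 1.59, 1.10, 1.59 and 1.75, then -0.66 and 0.67. The AGAP6 bin scored 2.45, 0.43, 0.61 and 1.47, then -0.91 and 1.01, and in it the T0 to T16 libraries differed among themselves by more than T24 did from the lowest of them. WASHC2A and AGAP6 also have near-identical copies on the chromosome.

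Of the 158 genes in 6 lists for the estrogen response, chromatin and DNA replication, 2 started in these bins. Of 31 classical E2 targets, such as GREB1, PGR and TFF1, 0 started in them, and likewise 0 of 17 luminal transcription factors, 0 of 14 CTCF and cohesin genes and 0 of 24 genes of chromatin repressors and the lamina, where 1.31% of all genes were in A-to-B and 0.31% in B-to-A bins. Lists of this size would hold few members at those rates. Of 27 coregulators of the estrogen receptor, KMT2C, a histone methyltransferase, was in a B-to-A bin, at -0.19, -1.21, -0.47 and -0.85 from T0 to T16, 0.48 at T24 and -1.24 in TamR. Of 47 genes of DNA replication and S phase, E2F3, a transcription factor of the G1 to S transition, was in an A-to-B bin, at 0.34, 0.68, 0.81 and 0.33, then -0.11 and 3.63. In both genes T24 was the only library past the border and the bin lay beside a compartment edge.

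Among the gene families, 3 of 42 collagen genes were in A-to-B bins (7.14%, against 1.31% of all genes). COL4A3 and COL4A4, chains of basement membrane collagen that share a bidirectional promoter, lay in the same bin at 0.78, 0.58, 0.79 and 0.88 from T0 to T16, -0.74 at T24 and -3.21 in TamR. COL5A2, a chain of fibrillar collagen, lay at -0.039 at T24 and -0.19 in TamR. Of 358 solute carrier genes, 5 were in A-to-B bins (1.40%) and 0 in B-to-A bins: SLC38A6, SLC25A26, SLC7A14, SLC2A2 and SLC30A9, a zinc transporter, whose T24 scores were -0.15, -0.17, -0.34, -0.88 and -0.94. Of 403 olfactory receptor genes, OR1B1, OR1L1, OR1L3 and OR1L4 shared a B-to-A bin on chromosome 9, at 0.51 at T24 and 1.96 in TamR. They were 1.23% of the olfactory receptor genes in B from T0 to T16, and the share over all genes in B was 1.57%. None of 91 cadherin and protocadherin genes and none of 55 keratin genes was in either group.

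Several genes with known roles in breast cancer or growth signalling lay in A-to-B bins and are named after their values were seen, as an account of the content and not as a selected group. PIK3CA, the catalytic subunit of PI3 kinase, scored 1.51, 1.09, 1.17 and 0.59 from T0 to T16, -0.47 at T24 and 1.26 in TamR. MET, the receptor of hepatocyte growth factor, scored 0.81, 1.13, 1.00 and 0.84, then -0.21 and 1.17. JAK1, a cytokine receptor kinase, scored 1.31, 1.33, 1.12 and 1.21, then -0.17 and -0.81. In all 3 bins T24 lay within 0.5 of the border and TamR was in A at PIK3CA and MET and in B at JAK1. AGR3 and AHR, the aryl hydrocarbon receptor, share a bin that scored 0.0080 at T16 and -0.020 at T24, so that its change of sign there was of the size of the threshold. FAS, the death receptor, was at -0.12 at T24 and 6.72 in TamR, and TP63 at -0.36 and 5.46. The matrix metalloprotease genes MMP1 and MMP10, in 1 bin, and MMP13 were at -0.011 and -0.15 at T24 and at -0.61 and -1.74 in TamR.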

How the data were processed

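TCC was performed in parental T47D cells at 5 E2 times and in TamR cells, with 1 library each. According to the study's methods the authors aligned reads to hg19 with bowtie2, filtered and iteratively corrected the 100 Kb contact matrix with HiCLib, kept contacts between chromosomes and deposited the first eigenvector as a score per bin; 0 marks a bin without a score. The score is scaled within a library, so its size is comparable between libraries only with that limit. Depth is unknown.

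From the deposited scores, signs, runs, border distances and differences were computed in Python 3.11.15 with numpy 2.4.6, pandas 2.3.3 and scipy 1.17.1, and plots with matplotlib 3.10.9. GC content, motifs and gene starts came from GRCh37 and GENCODE v44 mapped to it. The code was tested on simulated data. Genes were named from the 3 longest runs and the 10 bins with the largest T24 difference of each direction, and from gene lists; others are stated as chosen after their values were seen. Members and lists were chosen with earlier results of these data known. Alternatives were other borders, filters, bin sizes, smoothing, minimum runs, GC removal and leaving out each chromosome.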

Additional observations from a re-analysis of the deposited data

Results flagged for a closer look

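The share of scored autosomal bins in compartment A was 44.8% at T24 and 46.9 to 47.7% at T0, T1, T4 and T16. It was flagged because the gap of T24 to the next library was 0.72 of the whole range of the 5 parental libraries, just above the critical value of 0.71 for 5 values. The 5 libraries are 5 conditions and not replicates, 4 measures were looked at, and chance flags about 1 in 20 groups. The number of bins in which 1 library alone differed, the median score and the correlation with GC passed no such limit.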

How the results depend on the processing

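No paired analysis was possible because 1 library was made per condition. Of 96 values under 11 settings, 67 stayed within the interval of the reported value (for counts, within 1.5 times) and 29 did not. With the border at the library median, 45% of bins went from A to B, 59% of the A-to-B bins were in B in TamR and 38.6% had GC above the median. With T24 raised by its median difference near the border (-0.51), chosen after seeing the data, 35.6% went from A to B, 42.8% of the B-to-A bins were in A in TamR and 34.8% of the A-to-B bins had a gene start. With weak T24 scores left out (the lowest 10% by absolute value), 49 bins remained, of which 59.2% went from A to B; TamR was opposite in 55.2% (A to B) and 80% (B to A), 75% of the B-to-A bins had GC above the median, and gene starts were in 34.5% and 55%. With weak scores in any library left out, 3 bins remained, 0% from A to B, so no A-to-B share could be given; 33.3% were beside a border, 100% were in A in TamR, 100% had GC above the median and 66.7% a gene start. A running mean over 3 bins put 36.1% beside a border. Bins of 500 Kb gave 111 members, 75.7% from A to B and 80.2% beside a border, GC above the median in 74.1% of the B-to-A bins, and gene starts in 86.9% and 74.1%. Runs of at least 2 bins held 271 bins, 23.6% beside a border. With the GC dependence removed, 57.2% of the A-to-B bins had GC above the median. The cause of these shifts was not tested. Some settings held smaller or merged sets of bins.

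Without 1 chromosome at a time, the members numbered 475 to 531, the A-to-B share was 78.9 to 83.8% (the highest without chromosome 19) and the share beside a border 40 to 42.7%. The TamR shares were 43.7 to 49.6% (A to B) and 48.2 to 63.8% (B to A), GC above the median 46.9 to 50.5% and 57.8 to 69.4%, and gene starts 40 to 43.6% and 28.9 to 40.4%. The lowest of each B-to-A share was without chromosome 19. With 1 library per condition and unknown depth, no sign of a single bin has an error.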
